A study of Mus musculus with 8 samples.

Results

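The 40 genes described here act in mitosis or in G2, the phase that leads into it. They were taken from a list of 40 symbols chosen by function, and all 40 were among the 14042 gene symbols with a value in every library. No filter on low values was applied, so every member is accounted for. The genes fall into 8 role groups, which are the chromosome structure group (Mki67, Top2a, Ncapg, Ncaph and Cdca5), the mitotic entry group (Cdk1, Ccna2, Ccnb1, Ccnb2, Cdca3 and Foxm1), the mitotic kinases (Plk1, Aurka and Melk), the chromosomal passenger complex (Aurkb, Birc5 and Cdca8), the kinetochore and spindle checkpoint group (Bub1, Bub1b, Ttk, Cenpa, Cenpe, Cenpf, Nuf2, Ndc80 and Spc25), the spindle group (Kif11, Kif2c, Tpx2, Nusap1, Hmmr and Dlgap5), the cytokinesis group (Kif23, Kif20a, Prc1, Racgap1, Ect2 and Anln), and the cofactors of the anaphase-promoting complex (Cdc20 and Ube2c).

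The study addressed C5aR1, which senses the complement fragment C5a, in T follicular helper (TFH) cells, a kind of CD4 T cell that aids B cells in making antibody. RNA from mouse cells was sequenced in 8 libraries, with 2 libraries in each of 4 groups. The naive WT and naive KO groups are CD4 T cells sorted as CD62L high and CD44 low, from wild type and from C5aR1-/- mice. The TFH WT and TFH KO groups are donor cells gated on surface CXCR5 and high PD1 and recovered 7 days after 10000000 spleen cells without CD8 cells, from a wild type or a C5aR1-deficient donor, were given to (bxd)F1 mice. Parental spleen cells placed in an F1 mouse attack host tissue and model graft-versus-host disease, so cells with the TFH label differ from cells with the naive label in transfer, host and time as well as in sorted phenotype, and these cannot be told apart. Both donor genotypes went into the same kind of F1 recipient, in which host B cells and other host cells remain. The labels give neither age nor donor strain. The deleted gene was not analysed here, and no check of the genotype labels on its transcript was made.

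Values are the authors' deposited log2 expression values. They had been normalized so that all libraries share nearly the same distribution, and the depth of the libraries is unknown. A difference is a difference between group means on the log2 scale, where 1 is a doubling, given ± its standard error (SE) with n = 2 libraries per group. Whether the paired libraries of a group are from different animals is not stated in the labels, and the p-values then cover only the spread among the samples at hand, possibly a technical one. Where both libraries of a group are given, replicate 1 comes first. The T cell marker Cd3e lay between 13.75 and 13.99 in all libraries. Il21, a main cytokine of TFH cells, ran from 7.31 to 8.19 under the naive label and from 9.58 to 10.40 under the TFH label. Cxcr5, which encodes a receptor used in the sort, ran the other way, from 11.56 to 12.46 under the naive label and from 10.85 to 11.56 under the TFH label, so groups are named here by label.

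A dividing cell copies its DNA in S phase, passes through G2, and enters mitosis when cyclin B activates the kinase CDK1. Condensed chromosomes then attach through kinetochores to the spindle, a checkpoint delays separation until every chromosome is attached, and the anaphase-promoting complex starts separation by marking securin and cyclin B for destruction. Most of the genes involved are transcribed periodically with a peak in G2 and M, so that their level in a population tends to follow the fraction of cells in those phases. Naive T cells are largely quiescent, and T cells that meet antigen divide rapidly. In bulk RNA, fewer dividing cells and less RNA per dividing cell cannot be told apart.

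Many promoters of G2/M genes carry the cell cycle genes homology region (CHR), a short element bound by the DREAM and B-MYB-MuvB complexes, often together with CCAAT boxes bound by NF-Y. The most common form of the CHR is TTTGAA, and TTTAAA is a second form. RefSeq promoters of the GRCm38.p6 assembly, from 250 bases before the annotated start to 50 after it, were found for 34 of the 40 members. TTTGAA, on either strand (TTCAAA on the other), was present in 26 of the 34 promoters (76.5%), beside 5 of 34 promoters (14.7%) of a list of DNA replication and G1/S genes and 15.2% of the 10875 measured genes with a promoter sequence. The members without it were Ncaph, Ccnb1, Melk, Birc5, Bub1, Cenpe, Nuf2 and Nusap1. TTTAAA, which reads the same on both strands, was present in 9 member promoters (26.5%) and in 11.3% of all genes. CCAAT, or ATTGG on the other strand, was present in 25 (73.5%) against 22 G1/S promoters (64.7%) and 43.0% of all genes, and at least 2 copies were present in 17 of 34 members, 13 of 34 G1/S promoters (38.2%) and 16.1% of all genes. TTTGAA and CCAAT occurred together in 22 members (64.7%), 4 G1/S promoters (11.8%) and 6.21% of all genes. The E2F-type motifs TTTGGCGC, TTTCGCGC and TTTCCCGC showed the opposite arrangement, with 2 member promoters (5.88%, Ncapg and Cdk1), 16 G1/S promoters (47.1%) and 3.83% of all genes.

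The 8 stretches below show these motifs in members whose values are given in full further on. Each is 100 bases of the strand that the gene is read from, from -100 to -1 relative to the start, or from -150 to -51 for Mki67. Capitals mark the CHR forms and CCAAT boxes just named, on either strand. Plk1 is shown for its TTTAAA copies, and Bub1 as a promoter with CCAAT boxes and without TTTGAA.
Mki67: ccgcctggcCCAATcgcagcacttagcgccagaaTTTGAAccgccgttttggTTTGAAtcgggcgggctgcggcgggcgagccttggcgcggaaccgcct
Top2a: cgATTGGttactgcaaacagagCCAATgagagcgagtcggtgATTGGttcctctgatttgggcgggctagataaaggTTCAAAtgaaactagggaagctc
Ncapg: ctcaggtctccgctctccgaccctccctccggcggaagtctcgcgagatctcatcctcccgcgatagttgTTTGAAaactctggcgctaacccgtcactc
Cdk1: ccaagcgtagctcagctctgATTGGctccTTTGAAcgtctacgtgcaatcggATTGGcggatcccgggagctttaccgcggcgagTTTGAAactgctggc
Plk1: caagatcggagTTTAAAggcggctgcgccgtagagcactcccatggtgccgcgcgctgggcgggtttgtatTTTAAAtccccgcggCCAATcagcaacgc
Kif11: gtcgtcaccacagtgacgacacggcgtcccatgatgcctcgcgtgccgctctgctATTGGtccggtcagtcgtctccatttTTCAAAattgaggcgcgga
Cdc20: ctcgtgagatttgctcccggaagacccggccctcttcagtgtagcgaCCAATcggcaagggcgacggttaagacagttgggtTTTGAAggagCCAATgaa
Bub1: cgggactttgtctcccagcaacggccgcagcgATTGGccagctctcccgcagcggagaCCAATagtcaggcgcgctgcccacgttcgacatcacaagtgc

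In the stretches shown, Top2a held 3 CCAAT boxes upstream of its TTTGAA match, Cdk1 held 2 boxes and 2 TTTGAA matches, Cdc20 held a box on either side of its match, and Mki67 held 2 copies of TTTGAA close together. The Mki67 stretch lies at chr7:135716430-135716529, that of Top2a at chr11:99024190-99024289, that of Ncapg at chr5:45669825-45669924 and that of Cdk1 at chr10:69352913-69353012. Those of Plk1, Kif11, Cdc20 and Bub1 lie at chr7:122159335-122159434, chr19:37376282-37376381, chr4:118437344-118437443 and chr2:127831860-127831959. Strands are minus for Mki67, Top2a, Cdk1, Cdc20 and Bub1 and plus for Ncapg, Plk1 and Kif11.

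Matches to TTTGAA in the members lay near the start. Of 36 matches, counted at each annotated start, 29 were on the strand of the gene, and 16 members had a match that began after the start. Ect2 and Prc1 were each searched at an additional annotated start, where the same sites were counted again. Within 50 bases on either side of the start, a range chosen after the positions were seen, 24 of 34 member promoters (70.6%) held the motif, compared with 8.82% of G1/S promoters and 3.84% of all genes. In the 100 bases before the start alone the count was 9 (26.5%), compared with 4.23% of all genes. A match is a description of the sequence and does not show that a factor binds there.

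**Figure D1:**
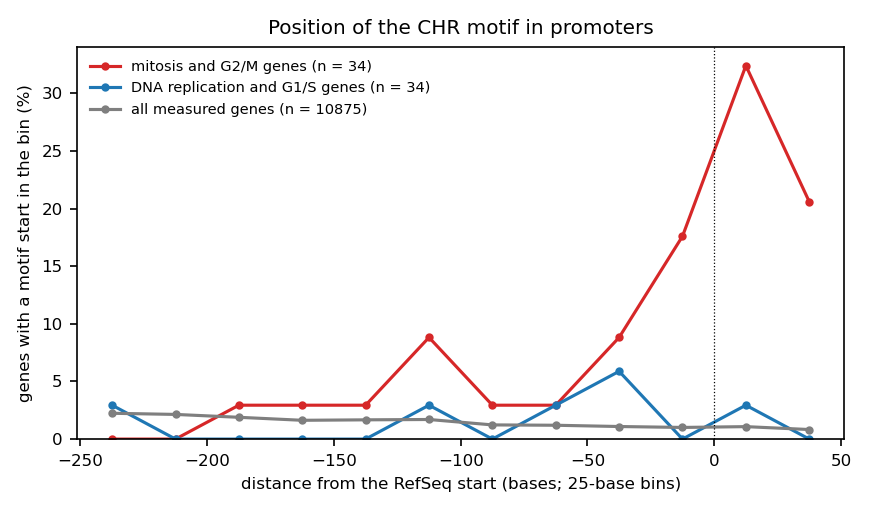
Share of promoters (y axis, percent of genes) with a TTTGAA match beginning in each 25-base bin, against distance from the RefSeq start (x axis, bases). Among the 34 mitosis and G2/M promoters the share reached 32.4% in the bin just after the start, while that of all 10875 measured genes lay between 0.828% and 2.24% in every bin.

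The members moved together across the libraries. The median member, relative to its own mean over the 8 libraries, lay at -0.56 and -0.90 in naive WT, -0.40 and -0.20 in naive KO, 0.55 and 0.89 in TFH WT, and -0.21 and 0.81 in TFH KO. Both TFH WT libraries were therefore high, and TFH KO was split, with replicate 1 near the naive-labelled libraries and replicate 2 near TFH WT. Both TFH WT libraries were above all 4 naive-labelled libraries for 39 of 40 members (24.6% of all genes), and so was TFH KO replicate 2 (31.4% of all genes), with Kif23 as the exception in both. TFH KO replicate 1 lay within the range of the naive-labelled libraries for 23 members (34.1% of all genes) and above all 4 for the other 17 (34.3%). TFH WT replicate 2 was the highest of the 8 libraries for 34 members (9.03% of all genes), and naive WT replicate 2 was the lowest for 36 (12.1%).

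**Figure D2:**
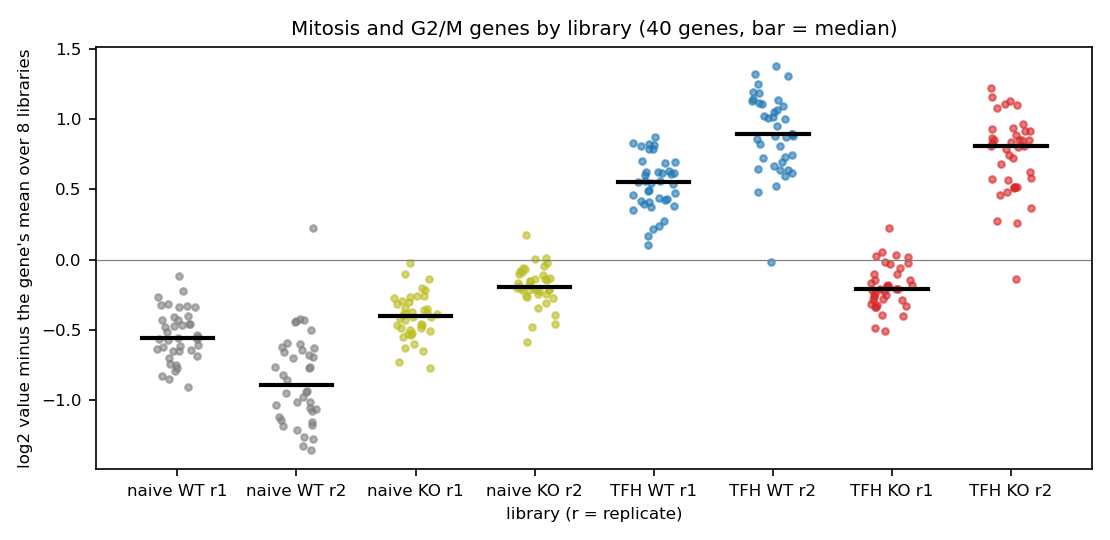
Log2 value of each of the 40 mitosis and G2/M genes minus its mean over the 8 libraries (y axis), by library (x axis, r for replicate). Points are genes and bars are medians, and the bar of TFH KO replicate 1, at -0.21, lies close to the naive-labelled libraries while that of replicate 2, at 0.81, lies close to TFH WT.

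Within a group, the members differed more between the replicates than most genes did. The median absolute gap between the 2 libraries of TFH KO was 1.036 for the members and 0.161 for all genes. It was 0.393 against 0.144 in TFH WT, 0.339 against 0.154 in naive WT and 0.225 against 0.16 in naive KO. In TFH KO the gap of replicate 2 over replicate 1 ran from -0.12 for Kif23 to 1.49 for Ube2c, and replicate 1 was lower for 39 of 40 members (41.6% of all genes). In TFH WT replicate 1 was lower for 38 (43.5% of all genes).

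In TFH WT against naive WT, 34 of 40 members rose and none fell, by limma with Benjamini-Hochberg adjusted p below 0.05 over all genes, where 12.6% of all genes were called higher. The median member difference was 1.468, with a range of 0.046 to 2.197, beside 0.007 for all genes. The largest rises were those of Cdca5, Foxm1 and Cdca8. The 6 members not called were Mki67, Top2a, Ccnb1, Nusap1, Ube2c and Kif23, and of these only Kif23 had overlapping groups. The SE was pooled over all 4 groups, so the gap between the TFH KO libraries also entered the WT test. With the compared groups alone, 38 of 40 members were called higher, where 13.3% of all genes were. Calls in fits without a compared library still used the spread of the other groups. They therefore do not show how far the WT difference depended on that library, and only the differences are given here. The median member difference was 1.628 and 1.329 without naive WT replicate 1 or 2. Without TFH WT replicate 1 or 2 it was 1.658 and 1.262. Differences are relative to the typical gene. T cell markers were themselves called lower in 4 of 14 cases and higher in 1 in WT, with a median difference of -0.05. Centring on them subtracted the median level of the 14 markers in each library. That level was 14.754 to 14.945 under the naive label and 14.308 to 14.463 under the TFH label. The size of this shift thus depends on how the markers are summarised, and it exceeded the median marker difference. After the centring, the median WT difference of all genes was 0.5683 rather than 0.0068. Then 9022 genes were called higher and 448 lower rather than 1772 and 1922. All 40 members were called higher (64.3% of all genes) with a median of 2.03.

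**Figure D3:**
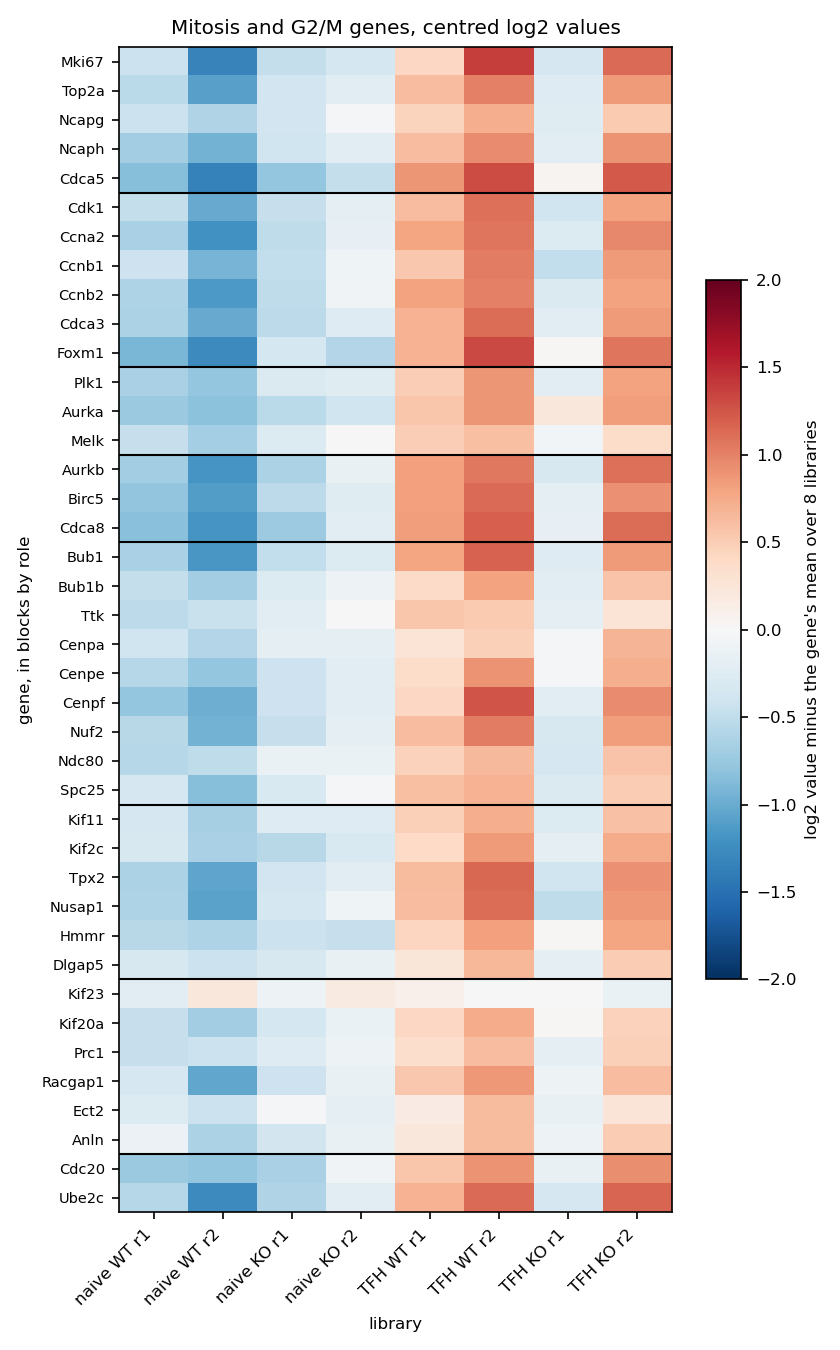
Centred log2 values of the 40 genes (rows, in blocks by role) in the 8 libraries (columns), with red above and blue below the gene's mean over the libraries on a scale from -2 to 2. The TFH WT columns and TFH KO replicate 2 are red for 39 genes, and Kif23, at the top of the cytokinesis block, is near 0 throughout.

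Of the chromosome structure genes, 3 of 5 rose, with a median difference of 1.62. Mki67 encodes the protein that coats mitotic chromosomes and is the usual marker of dividing cells. Its log2 value was 11.43 and 10.53 in naive WT, 11.39 and 11.51 in naive KO, 12.27 and 13.24 in TFH WT, and 11.52 and 12.99 in TFH KO. TFH KO replicate 1 was thus about level with naive KO replicate 2, and the replicates differed by more than in most genes in 3 of the 4 groups. The difference between TFH WT and naive WT, 1.77 ± 0.68, was not called (limma adjusted p = 0.144). Top2a, the topoisomerase that untangles sister DNA, was 11.52 and 10.98 in naive WT, 11.68 and 11.85 in naive KO, 12.68 and 13.07 in TFH WT, and 11.81 and 12.92 in TFH KO. Its WT difference of 1.62 ± 0.43 just missed the threshold (limma adjusted p = 0.0536). Both TFH WT values were above every naive-labelled value, while TFH KO replicate 1 fell among them.

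Cdca5 encodes sororin, which holds sister chromatids together, and had the largest WT difference of the members. It was 7.84 and 7.33 in naive WT, 7.92 and 8.20 in naive KO, 9.56 and 10.0 in TFH WT, and 8.74 and 9.91 in TFH KO. All 4 TFH-labelled values exceeded all 4 naive-labelled values, and the WT rise was 2.20 ± 0.39 (limma adjusted p = 0.00719). Ncapg, a condensin subunit, was 9.21 and 9.04 in naive WT, 9.26 and 9.59 in naive KO, 10.08 and 10.37 in TFH WT, and 9.40 and 10.16 in TFH KO. It rose by 1.10 ± 0.24 in WT, and TFH KO replicate 1 lay between the naive KO libraries. Ncaph, a second condensin subunit, rose by 1.60 ± 0.34.

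Of the cyclins, CDK1 and the other mitotic entry genes, 5 of 6 rose in WT, with a median of 1.76. Cdk1, the kinase that starts mitosis, was 8.96 and 8.42 in naive WT, 8.97 and 9.25 in naive KO, 10.06 and 10.53 in TFH WT, and 9.04 and 10.25 in TFH KO. It rose by 1.60 ± 0.43 in WT (limma adjusted p = 0.0444). Ccnb1, its cyclin B1 partner, was 9.04 and 8.52 in naive WT, 8.97 and 9.36 in naive KO, 9.99 and 10.47 in TFH WT, and 8.96 and 10.30 in TFH KO. TFH KO replicate 1 was below both naive KO libraries for this gene, and the WT difference of 1.45 ± 0.49 was not called (limma adjusted p = 0.0887). Ccnb2, cyclin B2, rose by 1.79 ± 0.39, and Ccna2, cyclin A2, by 1.86 ± 0.46. Ccnb1 and Ccnb2 each have an annotated pseudogene copy, so how reads were shared with it is uncertain.

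Foxm1 encodes a transcription factor that activates many genes of this kind in G2. It was 8.89 and 8.53 in naive WT, 9.43 and 9.21 in naive KO, 10.48 and 11.12 in TFH WT, and 9.82 and 10.87 in TFH KO. The 4 TFH-labelled values were all above the 4 naive-labelled ones, and the WT rise was 2.09 ± 0.39 (limma adjusted p = 0.0126). Cdca3, which promotes the destruction of the mitotic inhibitor WEE1, was 9.13 and 8.75 in naive WT, 9.24 and 9.50 in naive KO, 10.46 and 10.88 in TFH WT, and 9.56 and 10.62 in TFH KO, a WT rise of 1.73 ± 0.36. TFH KO replicate 1 was only just above naive KO replicate 2 for Cdca3.

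All 3 mitotic kinases rose in WT, with a median of 1.39. Aurka, Aurora kinase A of the spindle poles, had the smallest p of the members. It was 8.75 and 8.67 in naive WT, 8.95 and 9.09 in naive KO, 10.05 and 10.37 in TFH WT, and 9.71 and 10.32 in TFH KO. All TFH-labelled values were above all naive-labelled ones, and the WT rise was 1.5 ± 0.20 (limma adjusted p = 0.00033). Plk1, polo-like kinase 1, which acts from mitotic entry to cytokinesis, was 8.92 and 8.80 in naive WT, 9.27 and 9.32 in naive KO, 10.05 and 10.45 in TFH WT, and 9.35 and 10.37 in TFH KO, a WT rise of 1.39 ± 0.31. Its value in TFH KO replicate 1 was about that of naive KO. Melk, a kinase of the AMPK family, was 8.53 and 8.31 in naive WT, 8.71 and 9.0 in naive KO, 9.49 and 9.58 in TFH WT, and 8.93 and 9.36 in TFH KO. It rose by 1.12 ± 0.19 in WT, and both TFH KO values were below both TFH WT values.

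The chromosomal passenger complex corrects wrong attachments of chromosomes to the spindle, and its 3 members here rose in WT with a median of 1.94. Aurkb, its kinase, was 8.50 and 8.02 in naive WT, 8.57 and 9.05 in naive KO, 10.02 and 10.25 in TFH WT, and 8.88 and 10.30 in TFH KO, a WT rise of 1.88 ± 0.49. Birc5, or survivin, was 7.25 and 6.92 in naive WT, 7.52 and 7.80 in naive KO, 8.86 and 9.18 in TFH WT, and 7.85 and 8.96 in TFH KO. It rose by 1.94 ± 0.33 in WT (limma adjusted p = 0.00338). Cdca8, or borealin, was 8.80 and 8.45 in naive WT, 8.90 and 9.40 in naive KO, 10.46 and 10.83 in TFH WT, and 9.46 and 10.74 in TFH KO, a WT rise of 2.02 ± 0.45. In all 3 genes TFH KO replicate 1 was close to naive KO replicate 2 and TFH KO replicate 2 was near TFH WT.

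All 9 genes of the kinetochore and spindle checkpoint group rose in WT, with a median of 1.24 and a range from 0.88 for Cenpa, the histone variant of centromeres, to 1.89 for Bub1. Bub1, a checkpoint kinase, was 8.13 and 7.63 in naive WT, 8.30 and 8.51 in naive KO, 9.57 and 9.97 in TFH WT, and 8.53 and 9.64 in TFH KO (limma adjusted p = 0.00893 for TFH WT against naive WT). Ttk, the checkpoint kinase also known as MPS1, was 7.76 and 7.84 in naive WT, 8.06 and 8.28 in naive KO, 8.84 and 8.80 in TFH WT, and 8.09 and 8.55 in TFH KO. The replicates of Ttk lay close together in both WT groups, and its WT rise was 1.02 ± 0.19 (limma adjusted p = 0.00285). Spc25, a subunit of the NDC80 complex that holds microtubules, was 7.97 and 7.44 in naive WT, 8.0 and 8.28 in naive KO, 8.90 and 9.0 in TFH WT, and 8.02 and 8.82 in TFH KO, a WT rise of 1.24 ± 0.27. Its partners Nuf2 and Ndc80 rose by 1.56 ± 0.37 and 1.08 ± 0.25. Cenpf and Cenpe, which bind kinetochores, rose by 1.71 ± 0.43 and 1.31 ± 0.27, and the checkpoint gene Bub1b by 1.18 ± 0.26.

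Of the spindle genes, 5 of 6 rose in WT, with a median of 1.16. Kif11, the motor that pushes spindle poles apart, was 10.55 and 10.24 in naive WT, 10.64 and 10.63 in naive KO, 11.37 and 11.62 in TFH WT, and 10.63 and 11.48 in TFH KO. The WT rise was 1.10 ± 0.27, and TFH KO replicate 1 equalled the naive KO level. Hmmr, a spindle assembly factor, was 9.47 and 9.41 in naive WT, 9.60 and 9.57 in naive KO, 10.46 and 10.86 in TFH WT, and 10.06 and 10.82 in TFH KO, a WT rise of 1.22 ± 0.23 (limma adjusted p = 0.00563). All 4 of its TFH-labelled values were above all naive-labelled ones. Dlgap5, which stabilises spindle microtubules, was 9.31 and 9.20 in naive WT, 9.32 and 9.48 in naive KO, 9.88 and 10.30 in TFH WT, and 9.44 and 10.15 in TFH KO, a WT rise of 0.84 ± 0.23. Tpx2, an activator of Aurora A, rose by 1.73 ± 0.46, and Kif2c, a kinesin that shortens microtubules, by 1.10 ± 0.30. Nusap1, which bundles microtubules, differed by 1.71 ± 0.48 and was not called (limma adjusted p = 0.0535).

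Among the cytokinesis genes 5 of 6 rose in WT, with a median of 0.87, and Kif23 stood apart. Kif20a, a kinesin of the central spindle, was 9.62 and 9.38 in naive WT, 9.72 and 9.95 in naive KO, 10.50 and 10.83 in TFH WT, and 10.10 and 10.54 in TFH KO. All TFH-labelled values exceeded all naive-labelled ones, and it rose by 1.17 ± 0.18 in WT (limma adjusted p = 0.000811). Prc1, which bundles the central spindle, was 9.85 and 9.89 in naive WT, 10.05 and 10.21 in naive KO, 10.66 and 10.93 in TFH WT, and 10.12 and 10.80 in TFH KO, a WT rise of 0.93 ± 0.20. Kif23 encodes the kinesin that forms the centralspindlin complex with the product of Racgap1. Kif23 was 12.50 and 12.95 in naive WT, 12.62 and 12.90 in naive KO, 12.83 and 12.71 in TFH WT, and 12.72 and 12.59 in TFH KO, with a WT difference of 0.05 ± 0.15 (limma adjusted p = 0.859). Its 4 groups overlapped, whereas its partner Racgap1 rose by 1.40 ± 0.34. Ect2, which activates RhoA at the division plane, rose by 0.75 ± 0.19, and the scaffold gene Anln by 0.80 ± 0.25.

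Both genes of the anaphase-promoting complex group were higher in TFH WT, and 1 of the 2 was called. Cdc20, the activator that the checkpoint holds back, was 9.05 and 9.03 in naive WT, 9.15 and 9.73 in naive KO, 10.35 and 10.69 in TFH WT, and 9.65 and 10.73 in TFH KO. It rose by 1.48 ± 0.38 in WT (limma adjusted p = 0.0367). Ube2c, the ubiquitin-conjugating enzyme of the complex, was 8.61 and 7.90 in naive WT, 8.58 and 8.97 in naive KO, 9.88 and 10.31 in TFH WT, and 8.84 and 10.34 in TFH KO. Its WT difference of 1.84 ± 0.56 was not called (limma adjusted p = 0.0715), and its replicates in TFH KO lay farther apart than those of any other member.

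In TFH KO against naive KO, 2 of 40 members rose and none fell, where 9.12% of all genes were called higher. Aurka rose by 0.99 ± 0.20 (limma adjusted p = 0.00505) and Hmmr by 0.86 ± 0.23 (limma adjusted p = 0.0344). The median member difference was 0.559, with a range of -0.11 to 1.267, and 39 of 40 differences were positive. Both TFH KO libraries were above both naive KO libraries for 17 members (27.6% of all genes). Cdca5 had the largest difference, 1.27 ± 0.39, and was not called (limma adjusted p = 0.0663). Foxm1 differed by 1.03 ± 0.39 (limma adjusted p = 0.133), Cdca8 by 0.95 ± 0.45 (limma adjusted p = 0.224) and Mki67 by 0.80 ± 0.68 (limma adjusted p = 0.507).

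The KO comparison turned on which TFH KO library was used. Without TFH KO replicate 1 the median member difference was 1.137, with 39 of 40 differences positive. Without TFH KO replicate 2 it was 0.066, with 26 of 40 positive. It was 0.46 and 0.677 without naive KO replicate 1 or 2. Cdk1 and Ccnb1 were at -0.07 and -0.20 without TFH KO replicate 2, so that the direction for these genes rested on that library.

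**Figure D4:**
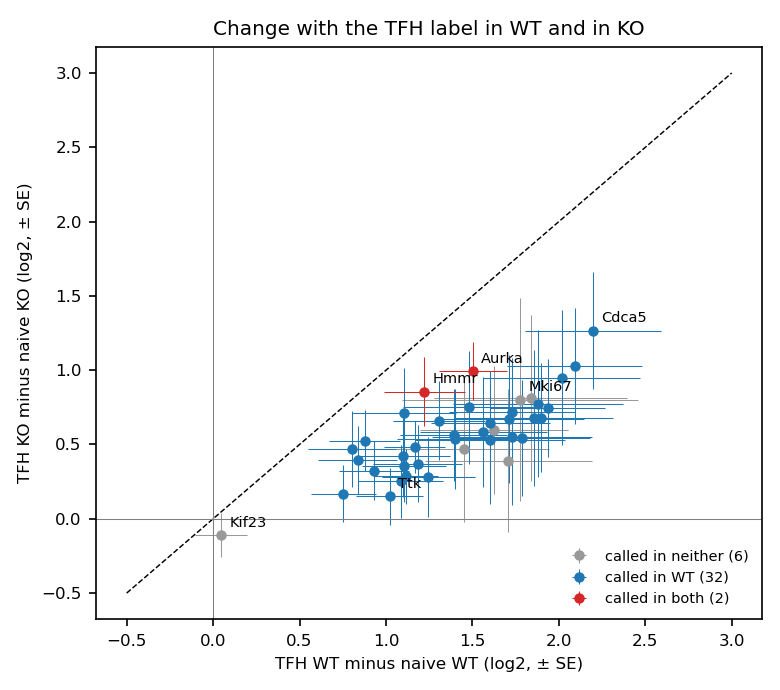
Difference between TFH-labelled and naive-labelled libraries in KO (y axis) against that in WT (x axis) for the 40 genes, in log2 units with SE bars and n = 2 libraries per group. The dashed line marks equal differences, 32 genes were called in WT alone, 2 in both and 6 in neither, and every gene lies below the line.

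In TFH KO against TFH WT, the comparison that bears on C5aR1 in the transferred cells, none of the 40 members was called, and none of the 14042 genes was (limma, 0.0% called, with 506 genes, or 3.6%, at an unadjusted p below 0.05). All 40 member differences were negative, with a median of -0.452 and a range of -0.691 to -0.054, beside 0.001 for all genes. The members move together between libraries, so the shared sign is not 40 separate observations. Both TFH KO values were below both TFH WT values in 4 members, Ccnb2, Melk, Ttk and Spc25 (16.5% of all genes). The members with the smallest p-values were Ttk at -0.50 ± 0.19, Melk at -0.39 ± 0.19, Spc25 at -0.53 ± 0.27, Kif20a at -0.34 ± 0.18 and Ect2 at -0.35 ± 0.19, each with a limma adjusted p of 1. Only Ttk had an unadjusted p below 0.05.

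TFH KO replicate 1 was below both TFH WT libraries for 39 members (28.9% of all genes), and TFH KO replicate 2 lay between them for 31 (28.6%). Without TFH KO replicate 1 the median difference was 0.032, with 24 of 40 positive, and without TFH KO replicate 2 it was -0.917. When only the replicate 2 libraries of TFH KO and TFH WT were compared, the median was -0.171, with 4 of 40 positive. When only their replicate 1 libraries were compared, the median was -0.742, with none positive. Without TFH KO replicate 1, the sign of most members therefore depended on which TFH WT libraries were kept.

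In naive KO against naive WT the differences had the opposite sign. No member was called (0.0712% of all genes were called in either direction), all 40 differences were positive, and the median was 0.421 with a range of 0.036 to 0.625. Both naive KO values were above both naive WT values for 33 members (15.2% of all genes). The members with the smallest p-values were Melk at 0.44 ± 0.19, Ttk at 0.37 ± 0.19, Kif20a at 0.34 ± 0.18, Birc5 at 0.58 ± 0.33 and Aurka at 0.31 ± 0.20, each with a limma adjusted p of 1. Melk was the only member at an unadjusted p below 0.05, where 2.53% of all genes were. Without naive WT replicate 2 the median was 0.263, with 38 of 40 positive, and without naive WT replicate 1 it was 0.619, with 39 positive.

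The interaction asks whether the difference between TFH-labelled and naive-labelled libraries was the same in KO as in WT. No member was called (0.0142% of all genes were called in either direction), all 40 estimates were negative, and the median was -0.900 with a range of -1.316 to -0.156. The smallest p-values were those of Ttk at -0.87 ± 0.27, Melk at -0.83 ± 0.26, Kif20a at -0.68 ± 0.25, Spc25 at -0.97 ± 0.38 and Birc5 at -1.19 ± 0.47. The limma adjusted p was 0.997 for each, and 6 members, compared with 4.37% of all genes, had an unadjusted p below 0.05. In 4 members, Ccnb2, Melk, Ttk and Spc25 (3.2% of all genes), KO was above WT in every naive-labelled library and below it in every TFH-labelled library. The difference between 34 calls in WT and 2 in KO was therefore tested gene by gene and passed the threshold for no member. The median was -0.399 without TFH KO replicate 1, with 3 of 40 estimates positive, and -1.353 without TFH KO replicate 2.

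Other genes of the same processes were counted in the same way. Beside the counts of these and later lists, 12.6% of all genes were called higher and 13.7% lower in WT. In KO the shares were 9.12% and 10.4%. Of 36 other kinetochore and checkpoint genes, 22 rose and 1 fell in WT, with a median of 0.678. In KO 4 rose and 3 fell, near the shares of all genes. Spdl1, which brings dynein to kinetochores, rose by 1.65 ± 0.28 in WT, the centromere gene Cenpm by 1.47 ± 0.26 and the checkpoint gene Mad2l1 by 0.99 ± 0.17, while the kinetochore gene Mis12 fell by 1.03 ± 0.13. Of 32 other spindle and cytokinesis genes 20 rose and none fell in WT, with a median of 1.041, and 2 rose in KO. Fam83d, which carries casein kinase to the spindle, rose by 3.80 ± 0.28 in WT and 2.88 ± 0.28 in KO, more than any member. The kinesin genes Kif4 and Kif15 rose by 1.62 ± 0.24 and 0.93 ± 0.14 in WT, and the cytokinesis kinase gene Cit by 0.94 ± 0.20.

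Of 25 other mitotic entry genes, 12 rose and 2 fell in WT, with a median of 0.376. In KO 3 rose and 2 fell, near the shares of all genes. Cks2, a subunit that binds CDK1, rose by 2.37 ± 0.16 in WT and 1.52 ± 0.16 in KO. Mybl2, which encodes the B-MYB factor of CHR promoters, rose by 1.49 ± 0.21 in WT, the phosphatase gene Cdc25b rose by 0.80 ± 0.13, and Rbl2, which encodes the p130 subunit of the repressive DREAM complex, fell by 0.66 ± 0.10. Of 17 other condensation and cohesion genes 4 rose and 4 fell in WT, with a median of 0.135, and 3 fell in KO. Esco2 and Smc2 rose by 1.40 ± 0.29 and 0.83 ± 0.16 in WT, whereas Pttg1, or securin, fell by 0.65 ± 0.12. In each genotype 2 rose and 2 fell of 17 other subunit and regulator genes of the anaphase-promoting complex, near the shares of all genes. The median for the complex was -0.156 in WT. Ube2s, which extends its ubiquitin chains, rose by 1.23 ± 0.11 in WT, and Anapc15, a small subunit, by 0.56 ± 0.16, while the subunit genes Cdc23 and Anapc2 fell by 0.53 ± 0.10 and 0.32 ± 0.10. With centring on T cell markers Cdc23 and Anapc2 were at 0.03 and 0.24, Rbl2 and Pttg1 at -0.10 and -0.08, none of them called, and Mis12 at -0.46 was still called.

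DNA replication and G1/S genes, which act earlier in the cycle, rose in 38 of 40 cases in WT with a median of 0.949, and in 22 of 40 in KO with a median of 0.626. Pcna, the sliding clamp of replication, rose by 1.33 ± 0.11 in WT. Their split between the TFH KO libraries was smaller than that of the mitosis genes, with a median absolute gap of 0.36 against 1.036, and TFH KO replicate 1 was above all 4 naive-labelled libraries for 32 of 40 of them, compared with 17 of 40 mitosis genes. Both lists come from the same libraries, and their difference was not tested. Of 17 CDK inhibitor and quiescence genes, 9 rose and 1 fell in WT and 8 rose and 1 fell in KO, among them Gadd45b by 3.08 ± 0.18 and Tob2 by 1.55 ± 0.11 in WT.

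Markers of other cells also differed between libraries. Of 22 listed B cell markers 19 were measured, none at 0, and their summed linear value, as log2, was 14.44 to 15.62 in the naive-labelled libraries, 13.16 and 15.50 in TFH WT, and 12.96 and 17.00 in TFH KO. This sum was thus below the naive-labelled range in replicate 1 of both TFH groups. It was within that range in TFH WT replicate 2 and above it in TFH KO replicate 2. TFH WT replicate 1 had mitosis genes above every naive-labelled library for 39 members with a summed B cell value below all of them. The B cell marker Cd22, at 10.67 there, was nevertheless above its highest naive-labelled value of 10.60. Whether B cells contributed to the mitosis gene levels was not tested. None of the 19 B cell markers was called in either TFH comparison. With the mean B cell marker added to the model, 39 members rose in WT (14.8% of all genes) and 27 in KO (12.0%), and the median of TFH KO against TFH WT was -0.593 with no member called.

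Of 13 measured markers of germinal centre B and plasma cells, 5 (Jchain, Sdc1, Mzb1, Irf4 and Derl3) were lowest in TFH KO replicate 1 and highest in TFH KO replicate 2 among the TFH-labelled libraries, as were 5.94% of all genes. The other 8 were not, and Fas, for example, was highest in TFH KO replicate 1. Jchain and Mzb1, genes of plasma cells, the antibody-secreting form of B cells, were picked out after the values were seen. Jchain, the joining chain of secreted antibody, was 13.45 and 10.67 in naive WT, 11.35 and 11.84 in naive KO, 12.09 and 13.30 in TFH WT, and 10.24 and 13.70 in TFH KO. Mzb1, a chaperone of antibody secretion, was 8.69 and 7.12 in naive WT, 8.60 and 8.18 in naive KO, 8.92 and 10.45 in TFH WT, and 6.71 and 11.24 in TFH KO. The TFH KO libraries thus lay at the extremes of the TFH-labelled ones for both genes. With the mean of Jchain, Mzb1, Sdc1 and Derl3 as a covariate, a choice also made after the values were seen, 39 members rose in WT (14.0% of all genes) with a median of 1.194, 21 rose in KO (10.9% of all genes) with a median of 0.465, and none was called in TFH KO against TFH WT, where the median was -0.312. In the TFH KO libraries the plasma cell covariate was at -1.358 and 1.488, split in the same direction as the mitosis genes. The B cell covariate, at -1.707 and 2.122, was split likewise. Such fits cannot separate other cells from anything else that differs between those libraries. The part of other cells in the mitosis gene levels was therefore not tested.

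Myeloid and TFH markers tended to differ between the labels in opposite directions. The median centred myeloid marker, of 20, was 0.17 to 1.85 in the naive-labelled libraries and -1.58 to 0.23 in the TFH-labelled ones. These ranges overlapped, and 4 of 20 fell and 1 rose in WT, while 3 fell and 1 rose in KO. The median TFH marker, of 13, was -0.038 and -0.683 in naive WT and -0.499 and -0.145 in naive KO. It was 0.49 and 0.38 in TFH WT and -0.002 and 0.33 in TFH KO. It was again lowest among TFH-labelled libraries in TFH KO replicate 1, which was nearly level with naive WT replicate 1. Of the 13, 7 rose and 1 fell in WT, and 5 rose in KO. Of 14 markers of CD8 T and NK cells, 8 fell in WT, with a median of -1.282, and 6 fell in KO, with a median of -0.704, and none rose. The median T cell marker, of 14, lay between -0.25 and 0.12 in the 8 libraries and at -0.01 in TFH KO replicate 1, while 4 fell and 1 rose in WT and 5 fell in KO.

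**Figure D5:**
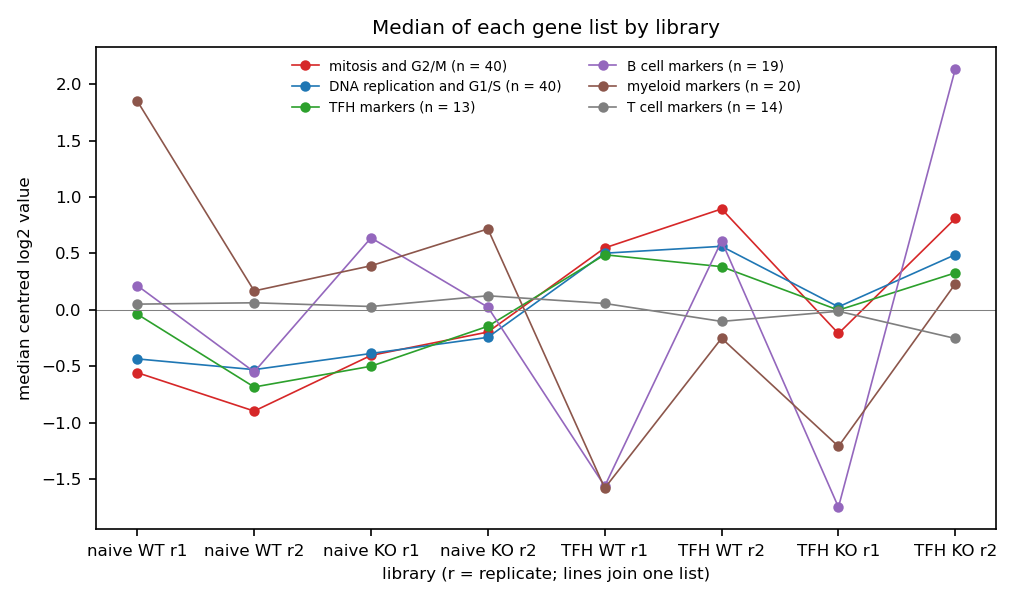
Median log2 value, relative to each gene's mean over the 8 libraries (y axis), of 6 gene lists in each library (x axis, r for replicate). The mitosis and G2/M list falls from 0.81 in TFH KO replicate 2 to -0.21 in replicate 1, the B cell list from 2.13 to -1.75, and the T cell list stays between -0.25 and 0.12.

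The members lie on 16 chromosomes. In the GENCODE annotation of GRCm38, 9 of the 40 overlap another protein-coding gene. Foxm1 overlaps Tex52 and Gm44596 on the same strand. Ncapg, Ccna2, Cdca8, Nusap1, Kif20a, Prc1, Cdc20 and Ube2c each overlap a gene on the opposite strand. Whether the counting used strand is not given in the sources used here, so reads from these overlaps cannot be assigned with certainty. The others have no such overlap, among them Kif23, Aurka, Mki67 and Top2a.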

How the data were processed

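Single-end reads of 51 bp came from 8 libraries, in 4 groups of 2, per the labels' protocols. BWA and the build mm10 are named per the submitters' processing notes, with no versions. How reads were counted, annotated and normalized is not given in the sources used here. For every library the authors deposited a log2 value for each of 14042 symbols. Sorted libraries differed by at most 0.03 from their median library above the lowest percentile, as quantile normalization gives, so depth is unknown and differences in overall RNA content are removed.

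These values entered limma 3.58.1 (R 4.3.3) with 1 mean per group, trended and robust moderation, all genes and all libraries, leaving 4 residual degrees of freedom. P-values were adjusted by Benjamini-Hochberg over all genes in each of 5 comparisons, and a gene was called below 0.05. The model was tested on simulated data in which genes varied independently, unlike the members here. Changes of 1 and 2 were called in 75.0% and 95.0% of cases in WT and in 66.0% and 94.0% in KO. Smaller changes were not simulated. With 2 libraries a group, an exact two-sided permutation test reaches 0.33 at the lowest. Motifs were matched on both strands of RefSeq promoters. The 40 members, the other lists and the tests were chosen with earlier results of these data known. Values in every library were given for a preset group of members and for the 2 members of each role group with the smallest p in either comparison of TFH with naive. Elsewhere the 5 members, or up to 4 list genes, with the smallest p were named. Replicate numbers follow the order of deposit. The alternatives were other limma settings, scalings, covariates, filters and leaving out libraries.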

Additional observations from a re-analysis of the deposited data

Results flagged for a closer look

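Ccnb2, Melk, Ttk and Spc25 were the members in which the genotype difference had opposite signs in every library of the 2 labels, with both naive KO values above both naive WT values and both TFH KO values below both TFH WT values. This arrangement held for 4 of 40 members and for 3.2% of all genes. The interaction was -1.24 ± 0.55 for Ccnb2 (cyclin B2), -0.83 ± 0.26 for Melk, -0.87 ± 0.27 for Ttk and -0.97 ± 0.38 for Spc25. None was called, with a limma adjusted p of 0.997 for each. Groups of 2 libraries allow no test of whether a single library stands apart.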

How the results depend on the processing

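The 34 members called higher in TFH WT against naive WT stayed within 1.5 times that count in the 12 alternatives other than leaving out a single library, and were 7 to 22 when a library was left out. The 2 called in TFH KO against naive KO were 1 without the mean-variance trend, with the compared groups alone and with centring on ribosomal protein genes, 21 with centring on T cell markers (which moved the median of all genes from -0.0111 to 0.4344 and called 48.3% of all genes higher), 27 with the mean B cell marker in the model, 0 without replicate 2 of both TFH groups, and 1 to 32 when a library was left out. After seeing the data, leaving out replicate 1 of both TFH groups (32) and the plasma cell covariate (21) were added. No member was called in TFH KO against TFH WT, naive KO against naive WT or the interaction under any alternative run. In the KO comparison, 13 members turned negative without TFH KO replicate 2, and also without replicate 2 of both TFH groups. For the 7 of them with values given in every library, leaving out 1 library gave -0.07 to 1.14 for Cdk1, -0.20 to 1.14 for Ccnb1, -0.01 to 0.84 for Kif11, -0.02 to 0.73 for Ncapg, -0.08 to 0.38 for Ttk, -0.12 to 0.68 for Spc25 and -0.02 to 0.66 for Prc1. Fits with 1 library in a group assume that it varies like the other groups. TTTGAA was present in 9 rather than 26 promoters in the 100 bases before the start. The cause of these changes was not tested. No paired analysis was possible because the labels give no replicate numbers. With depth unknown, precision is known only from the replicates.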
